A study of Mus musculus with 6 samples.

Results

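The cytosolic ribosomal proteins are the protein-coding genes whose products build the ribosome of the cytoplasm. Members were chosen by name: a symbol made of Rpl or Rps, a number and an optional a, x or l, together with Rplp0, Rplp1, Rplp2 and Rpsa, without the Rps6k kinases and without genes named as -ps copies. This gave 80 genes of the 53379 in the count tables, 49 of the large subunit and 31 of the small subunit. RNA had been sequenced from Min6 cells, a mouse insulinoma line with many features of pancreatic beta cells. The tested cells carried lentiCRISPR v2, a lentiviral vector for CRISPR editing, with a gRNA (guide RNA) against JunD, an AP-1 transcription factor, and the control cells carried it with a gRNA against the Rosa26 locus, which serves as a negative control. Each group had 3 libraries, and both groups were at passage 28, had been transduced 8 days earlier and had spent the last 30 hours in glucolipotoxic conditions, so the data hold no unstressed cells. The labels describe transduced cells and no single-cell clone, and do not say whether the 3 libraries of a group came from separate cultures, so a p-value here speaks only of the spread among these libraries, which could be technical.

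Ribosomal proteins assemble with ribosomal RNA into the small subunit, which reads the mRNA, and the large subunit, which joins amino acids and carries the stalk that recruits elongation factors. Their mRNAs are short, abundant and built for joint control of translation: most begin with a run of pyrimidines, the TOP motif, through which mTORC1 and the RNA-binding protein LARP1 set how well they are translated. Mammalian ribosomal protein genes usually have a single active, intron-containing locus and many processed pseudogenes, which are intronless copies made by reverse transcription of the mRNA. Beta cells depend on a high and regulated rate of protein synthesis for insulin production.

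The libraries held 41803921, 41071566 and 49628813 counts with the JunD gRNA, and 43408459, 50024931 and 47834207 counts with the Rosa26 gRNA. Jund had 22.6, 25.1 and 26.9 CPM (counts scaled to a common library total) in the JunD gRNA libraries and 39.3, 34.5 and 30.4 CPM in the Rosa26 gRNA libraries. Its log2 fold change was -0.38 ± 0.08 (SE) on the 5 libraries described next, past the test across genes (edgeR adjusted p = 0.00773), and -0.47 ± 0.11 on all 6, which was not (edgeR adjusted p = 0.417). All 10 beta-cell markers examined were above 1 CPM in these cells, with a summed level of 91161 to 97600 CPM with the JunD gRNA and 53461 to 92386 CPM with the Rosa26 gRNA. The 3 alpha-cell markers were also present, at 4631 to 4705 CPM in sum with the JunD gRNA and 2638 to 4776 CPM with the Rosa26 gRNA. Most of that sum was Ttr, at 3948 to 4053 CPM with the JunD gRNA, beside Gcg at 646 to 678 and Irx2 at 6.62 to 6.73. In the same JunD gRNA libraries the duct marker Krt19 was at 60.3 to 62.5 CPM, with Sox9 and Cftr at most 0.0730. Ppy of PP cells was there at 15.5 to 18.7 CPM and Sst of delta cells at 5.53 to 8.23, with Hhex at most 0.0487. Of 4 acinar markers 2 were at 0 in all libraries and the sum stayed under 0.15 CPM. Rosa26 gRNA replicate 1 stood apart from the other libraries and is the low end of both Rosa26 gRNA ranges. Results that rest on it are therefore given with it (6 libraries) and without it (5 libraries). In bulk RNA, fewer cells of a type and less RNA per cell cannot be told apart.

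The first property of these genes in the count tables was how often their sequence recurs elsewhere. For each member, the coding sequence of its main transcript was set beside its most counted copy elsewhere in the genome, both taken from GENCODE M21 transcripts on GRCm38. The pairs printed here are members whose copy drew a large number of counts. Bases that differ between the member and its copy are in capitals, each stretch is 75 bases long, and the stretch shown is the one with the most differences. The printed pairs are coding bases 1 to 75 of Rps6 (chromosome 4) and of Rps6-ps4 (chromosome 2), the same bases of Rps27 (chromosome 3) and Rps27rt (chromosome 9), the same bases of Rpl3 (chromosome 15) and Rpl3-ps1 (chromosome X), and bases 373 to 447 of Rplp0 (chromosome 5) and Gm8730 (chromosome 8).
Rps6: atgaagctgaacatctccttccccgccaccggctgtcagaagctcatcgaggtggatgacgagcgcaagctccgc
Rps6-ps4: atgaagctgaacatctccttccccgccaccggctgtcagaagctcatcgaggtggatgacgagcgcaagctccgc
Rps27: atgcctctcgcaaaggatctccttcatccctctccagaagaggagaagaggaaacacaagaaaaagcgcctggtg
Rps27rt: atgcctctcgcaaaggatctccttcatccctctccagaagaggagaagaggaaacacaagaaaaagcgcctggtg
Rpl3: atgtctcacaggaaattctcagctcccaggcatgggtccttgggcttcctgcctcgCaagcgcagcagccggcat
Rpl3-ps1: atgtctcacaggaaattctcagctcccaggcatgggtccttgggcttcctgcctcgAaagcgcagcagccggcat
Rplp0: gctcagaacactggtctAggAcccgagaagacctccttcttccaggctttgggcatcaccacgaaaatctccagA
Gm8730: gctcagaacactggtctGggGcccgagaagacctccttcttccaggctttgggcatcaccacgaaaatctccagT

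Rps6-ps4 was identical to Rps6 over all 747 coding bases, and Rps27rt to Rps27 over all 252. Rpl3-ps1 matched 99.8% of the 1209 coding bases of Rpl3, and Gm8730 matched 98.7% of the 951 of Rplp0. Of the 72 members with a copy, 70 aligned over at least 90% of their coding sequence, with a median identity of 99.5% and a range of 94.0% to 100%. At least 99% identity was found for 49 of these 70. A read that falls wholly in an identical stretch does not carry bases that would tell its source.

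The deposited counts followed these copies. A copy was defined as another annotated gene that shared at least 20% of a member's 50-base windows with up to 2 mismatches. There were 789 copies, of which 749 are annotated as pseudogenes, and 70 of the 80 members had at least 1 pseudogene copy. In 51 members the pseudogene copies together held more counts than the member, and in 24 members with over 1 CPM they held more than 10 times as many. Rps6, whose protein is the S6 kinase substrate of the small subunit, had 7.56, 6.77 and 6.33 CPM in the JunD gRNA libraries and 6.24, 6.82 and 6.52 CPM in the Rosa26 gRNA libraries. Rps6-ps4, a processed pseudogene, had 373, 384 and 382 CPM with the JunD gRNA and 345, 385 and 377 CPM with the Rosa26 gRNA. Every library thus placed the great majority of this pair's counts on the intronless copy.

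The same held for members across both subunits. Averaged over the 6 libraries, Rps16 of the small subunit was at 3.92 CPM against 321 CPM on Rps16-ps2, and Rps29, a small-subunit protein with a zinc-binding site, was at 2.56 CPM against 246 CPM on Gm14303. Rpl5 and Rpl11, which bind ribosomal RNA as a particle and are known to restrain Mdm2, the p53 ligase, were at 4.53 and 6.97 CPM. Their main copies, Gm15500 and Gm10288, were at 272 and 265 CPM. Rpl24 was the extreme case, with 0.0709 CPM on the member and 86.2 CPM on Gm12254. Another annotated gene, Gm28037, also covers 47% of the Rpl24 exon length, and the part of this overlap in the low row was not tested.

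Some of these counts lay on genes that the annotation calls protein-coding, and so were not in the pseudogene sums. Rps27 was at 2.61 CPM and Rps27rt, a protein-coding copy, at 195 CPM. Rplp2, a stalk protein, was at 14.3 CPM, while Wdr89, whose transcripts hold a stretch 99.4% identical to the Rplp2 coding sequence, was at 264 CPM. Rpl35 was at 4.22 CPM and Gm2000 at 166 CPM. For Rps27 and Rpl35 the count row holds a minority of the counts on the member and this copy together. Wdr89 is a gene of its own that shared 43.9% of the Rplp2 windows. The part of its counts that falls in the shared stretch was not measured.

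The other end was formed by members with no pseudogene copy by the 20% rule, among them Rps3, Rps20, Rps15a, Rpl8, Rpl39, Rpl39l and Rpl3l. That rule depends on the length of the main transcript, which was 5130 bases for Rps15a and 3706 for Rps20. On a long transcript, a copy of a short part stays under 20% of the windows. Some windows of Rps15a, Rps20 and Rpl39 did match pseudogenes, 23, 22 and 19 of them. Rpl8 had 91.3% of its 50-base windows found in no other gene, Rps15a 91.3%, Rps20 89.7% and Rps3 83.4%. These shares are not alike: the main transcript of Rpl8 has 851 bases, and its other windows matched 1 gene. In the longer transcripts of Rps15a and Rps20 the other windows matched 268 and 1030 genes. The median over all 80 members was 30.45%, and 62 members were under 50%. The lowest were Rpl35 at 0.2% and Rps27 at 0.7%. How the counting treated reads with several matches is not stated in the labels or notes used here, so its part in the low rows was not tested.

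**Figure D1:**
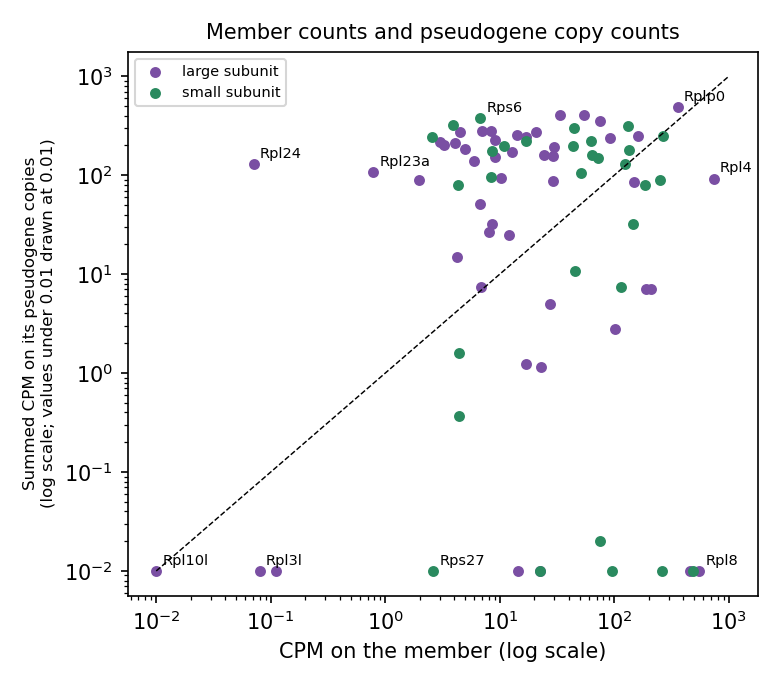
Mean CPM over 6 libraries on each of the 80 members (x axis, log scale) against the summed CPM on its pseudogene copies (y axis, log scale), by subunit; the dashed line marks equal values. Points above the line are the 51 members whose pseudogene copies held more counts, and Rps6 sits at 6.71 CPM against 376 CPM on its pseudogenes.

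In all, the members took 0.651%, 0.662% and 0.715% of the counts with the JunD gRNA, against 0.509%, 0.634% and 0.620% with the Rosa26 gRNA. Exact 95% binomial intervals for single libraries were narrow, for example 0.648% to 0.653% in JunD gRNA replicate 1, and cover counting error only. The pseudogene copies took more: 1.08%, 1.11% and 1.16% with the JunD gRNA and 0.871%, 1.07% and 1.04% with the Rosa26 gRNA. Members held 37.7 ± 0.33% of the sum of members and pseudogene copies in the JunD gRNA libraries and 37.1 ± 0.20% in the Rosa26 gRNA libraries (SD, n = 3 each). The split between members and copies therefore moved far less between libraries than the totals did. Rosa26 gRNA replicate 1 was the lowest library on both parts.

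**Figure D2:**
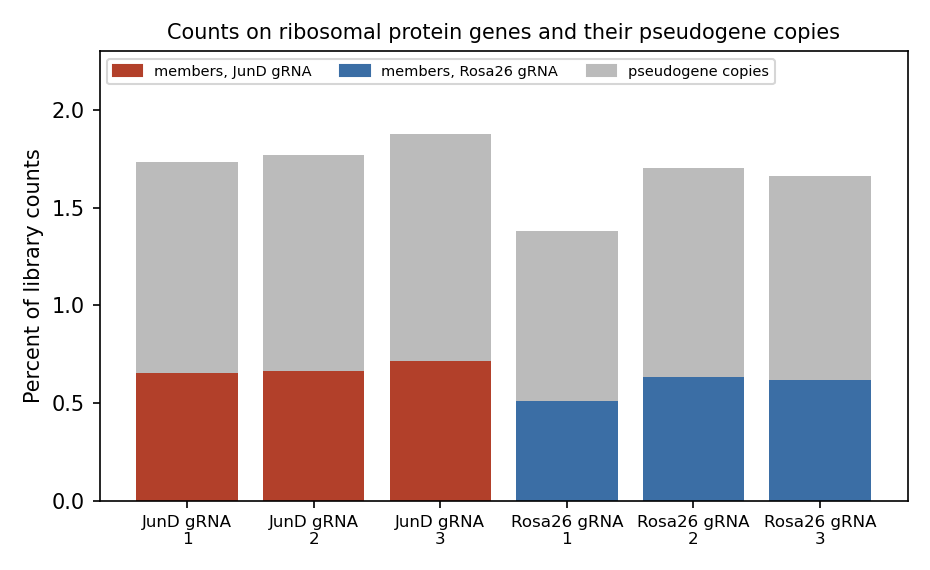
Percent of each library's counts on the 80 members (coloured) and on their pseudogene copies (grey, stacked), for 3 JunD gRNA and 3 Rosa26 gRNA libraries. The stacked total lies at 1.73% to 1.88% in the JunD gRNA libraries and at 1.38% to 1.70% in the Rosa26 gRNA libraries, with Rosa26 gRNA replicate 1 lowest.

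Large and small subunit genes kept a steady ratio. Large-subunit members took 0.384 ± 0.022% of counts with the JunD gRNA and 0.331 ± 0.040% with the Rosa26 gRNA, and small-subunit members took 0.292 ± 0.013% with the JunD gRNA and 0.257 ± 0.028% with the Rosa26 gRNA (SD, n = 3 each). Without Rosa26 gRNA replicate 1 the Rosa26 gRNA means were 0.354% for the large and 0.273% for the small subunit, nearer to those of the JunD gRNA. The ratio of large to small was 1.28, 1.33 and 1.33 with the JunD gRNA, against 1.27, 1.30 and 1.29 in the Rosa26 gRNA libraries, so the groups overlapped. With the pseudogene copies added, the ratio was 1.51 ± 0.018 with the JunD gRNA and 1.55 ± 0.050 with the Rosa26 gRNA, which turns the order of the group means round. Rosa26 gRNA replicate 1 had the highest of these ratios, at 1.61. Rosa26 gRNA replicates 2 and 3, each at 1.52, lay within the JunD gRNA range of 1.49 to 1.53.

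Levels per length differed widely among members, although most of their products occur once in each ribosome. On the scale of CPM per kb of annotated exon, the highest large-subunit members were Rplp1, Rpl8, Rpl41, Rpl4 and Rplp0. Rplp1, a stalk protein, had a level of 463 ± 13.9 CPM per kb with the JunD gRNA and 370 ± 90.9 with the Rosa26 gRNA. Rpl8, which lies near the catalytic centre of the large subunit, had 433 ± 33.7 CPM per kb with the JunD gRNA and 381 ± 30.8 with the Rosa26 gRNA. Rpl41, the smallest ribosomal protein, had 463 ± 60.3 with the JunD gRNA and 327 ± 106 with the Rosa26 gRNA. Rpl4, whose loop lines the exit tunnel, had 377 ± 5.93 with the JunD gRNA and 359 ± 10.4 with the Rosa26 gRNA (SD, n = 3 each). These 4 neighbours in the order overlapped within their spread in the Rosa26 gRNA libraries. Rplp0, the base of the stalk, was lower, at 232 ± 7.89 CPM per kb with the JunD gRNA and 198 ± 29.1 with the Rosa26 gRNA.

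Rps15, Rps21 and Rps14 were among the highest small-subunit members. Rps15 had 318 ± 30.2 CPM per kb with the JunD gRNA and 265 ± 13.7 with the Rosa26 gRNA, and Rps14 had 118 ± 4.71 CPM per kb with the JunD gRNA and 106 ± 15.1 with the Rosa26 gRNA (SD, n = 3 each). The lowest tested small-subunit levels were those of Rps13, Rps12, Rps27, Rps16 and Rps23, between 1.47 and 3.79 CPM per kb as group means. The lowest tested large-subunit levels were those of Rpl23a, Rpl5, Rpl36a, Rpl37 and Rpl30, between 0.78 and 1.99 CPM per kb as group means. The highest tested member stood 452-fold above the lowest per kb. Of these 10 low members, all but Rps23 have a copy with more counts than themselves; the pseudogene copies of Rps23 held 0.37 CPM.

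Adding the pseudogene counts to each member narrowed the spread of levels. The SD of log2 CPM over tested members was 2.29 for the members alone and 1.73 for the sums. Member CPM had quartiles of 7.82 and 96.7, whereas the sums had quartiles of 94.5 and 286 CPM with a median of 212. Across members, the share of unique windows and the level per kb had a Spearman rho of 0.16 with 50-base windows and 0.32 with 100-base windows (n = 76 tested members, which share their libraries). Exons of 36 members also overlap another annotated gene, in 6 of them over at least 25% of the exon length, as for Rpl35 with 66.2% and Rpl23a with 62.3%; without a stated strand setting, reads of such pairs cannot be told apart.

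Members with a restricted range in other tissues were near 0. Rpl3l, a paralogue of Rpl3 known from muscle, had 0.0479, 0.146 and 0.222 CPM with the JunD gRNA and 0.0230, 0.0200 and 0.0209 CPM with the Rosa26 gRNA. Rpl10l, the testis paralogue of Rpl10, had counts in a single library, JunD gRNA replicate 1, at 0.0478 CPM. Rpl39l, the testis paralogue of Rpl39, was at 0.112 CPM on average. These 3 and Rpl24 were too low for the test, which left 76 of the 80 members. Rps27l, a p53-responsive paralogue of Rps27, was well expressed, with 77.3, 73.5 and 85.3 CPM in the JunD gRNA libraries and 61.5, 72.7 and 77.1 CPM in the Rosa26 gRNA libraries, and had 69.3% unique windows.

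With all 6 libraries, no member passed the test between JunD gRNA and Rosa26 gRNA cells (edgeR quasi-likelihood test, Benjamini-Hochberg adjustment at 0.05 over all genes). No gene at all passed among 17767 tested, so the background was 0%, and the smallest adjusted p of a member was 0.417. DESeq2 also called 0 members in these libraries, against a background of 0.113% of all genes higher and 0.265% lower. At an unadjusted p under 0.05, 13 members were higher and 0 lower with the JunD gRNA, against a background of 5.41% of all genes higher and 6.51% lower. The fold change was above 0 in 68 of 76 members (89.5%), against 48.9% of all genes, with a median log2 fold change of 0.18 for members and -0.01 for all genes. In 24 members the 3 JunD gRNA libraries all lay above the 3 Rosa26 gRNA libraries, and in 0 members below, against a background of 11.6% above and 12.8% below.

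The lean was smaller without one library. Rosa26 gRNA replicate 1 was the lowest of the 6 libraries in 59 of the 76 members, against 32.8% of all genes. Against each member's own mean log2 CPM over 6 libraries, the median deviation was 0.05, 0.08 and 0.15 in JunD gRNA replicates 1, 2 and 3, and -0.24, 0.02 and 0.00 in Rosa26 gRNA replicates 1, 2 and 3. JunD gRNA replicate 3 was the highest library in 51 members, against 19.5% of all genes. Ins2, the main insulin gene, had 49893 to 53634 CPM in the JunD gRNA libraries, against 21947 CPM in Rosa26 gRNA replicate 1 and 45933 and 49125 CPM in the other Rosa26 gRNA libraries. Within the members its deviation from the other Rosa26 gRNA libraries had a Spearman rho of -0.35 with GC content of the mRNA (n = 76 members, which share the libraries), and the part of GC content in the result was not tested.

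**Figure D3:**
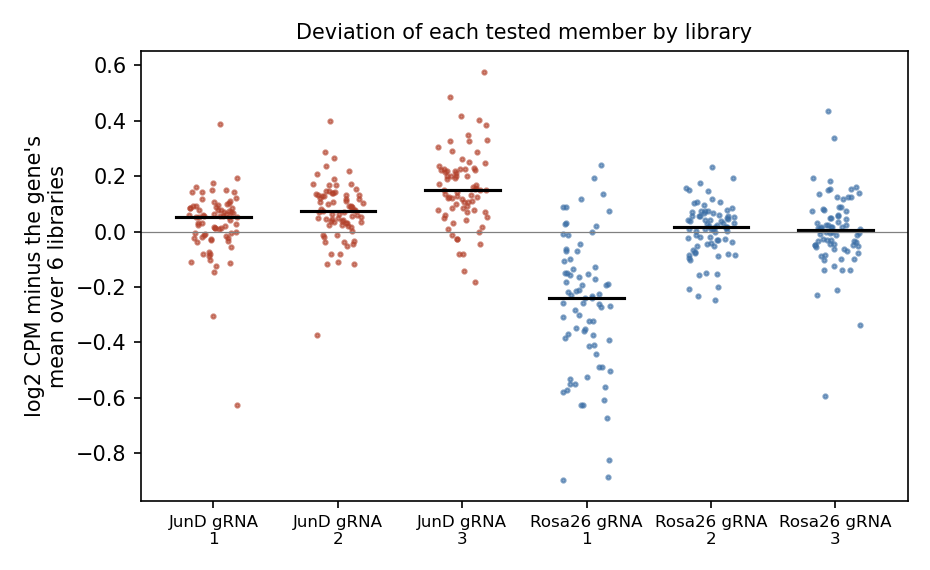
Deviation of each of the 76 tested members from its own mean log2 CPM over 6 libraries (y axis), by library, with black lines at the medians. The medians are 0.05, 0.08 and 0.15 with the JunD gRNA, and -0.24, 0.02 and 0.00 in the Rosa26 gRNA libraries.

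On the 5 remaining libraries, 3 of 76 members rose and 0 fell in JunD gRNA cells (3.95%), against a background of 1.45% of 18296 genes higher and 1.4% lower. They included Rpl41 of the large subunit and Rps15 of the small subunit. At an unadjusted p under 0.05, 22 members were higher and 0 lower, against a background of 8.31% higher and 7.59% lower. The fold change was above 0 in 61 of 76 members (80.3%), against 49.2% of all genes, with a median of 0.08 on the log2 scale for members and -0.00 for all genes. The groups did not overlap for 26 members higher and 4 lower, against a background of 15.7% and 17.3%. A median of 0.08 is a difference of a few percent in level, and it was similar in the large subunit (0.09, 45 members) and the small subunit (0.08, 31 members). The count depended on the libraries used. Without JunD gRNA replicate 1, 12 members were called higher, beside 378 of all 18027 genes tested. Without JunD gRNA replicate 2 or 3 it was 2, beside 281 of 18041 and 316 of 17855 genes. Leaving out Rosa26 gRNA replicate 2 or 3 leaves that group with 1 library, so calls of those fits are not counted here.

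Rpl41, whose product is a very short basic peptide at the subunit interface, had 490, 512 and 622 CPM in the JunD gRNA libraries and 238, 459 and 447 CPM in the Rosa26 gRNA libraries. All JunD gRNA libraries lay above all Rosa26 gRNA libraries, with replicate 1 of the Rosa26 gRNA far below the rest. On 5 libraries its log2 fold change was 0.26 ± 0.06 (SE; edgeR adjusted p = 0.0215), and on 6 libraries 0.52 ± 0.22 (edgeR adjusted p = 0.417). Rpl41 lies on chromosome 10 (GRCm38, 128548114 to 128549305, minus strand) and 36.6% of its windows were unique. Its main other match, the non-coding Gm10076, had 60.2, 63.6 and 86.6 CPM in the JunD gRNA libraries and 24.5, 56.2 and 56.6 CPM in the Rosa26 gRNA libraries. JunD gRNA replicate 3 carried part of the difference: without it the log2 fold change of Rpl41 on the remaining libraries was 0.15. Rpl41 was still called by edgeR in that fit. DESeq2 did not call Rpl41 on 5 libraries (adjusted p = 0.297), and over all alternatives on 5 libraries its adjusted p ran from 2.97e-10 to 0.420.

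Rps15, a protein of the small-subunit head near the decoding centre, had 190, 189 and 222 CPM with the JunD gRNA and 157, 174 and 170 CPM with the Rosa26 gRNA. The groups did not overlap. Its log2 fold change was 0.23 ± 0.06 on 5 libraries (edgeR adjusted p = 0.0271) and 0.28 ± 0.09 on 6 (edgeR adjusted p = 0.417). The gene lies on chromosome 10 (GRCm38, 80292453 to 80294114, plus strand), and 69.9% of the counts of its family were on the member. With the pseudogene copies added, the level was 269, 268 and 313 CPM in the JunD gRNA libraries and 230, 252 and 244 CPM in the Rosa26 gRNA libraries, and the call stood on 5 libraries (log2 fold change 0.20 ± 0.05, edgeR adjusted p = 0.0371). With the correction for GC content and length the log2 fold change was 0.13 (edgeR adjusted p = 0.0601), and without JunD gRNA replicate 3 it was 0.14. Rps15 was still called by edgeR without that replicate. Over all alternatives on 5 libraries the adjusted p of Rps15 ran from 2.85e-05 to 0.439.

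**Figure D4:**
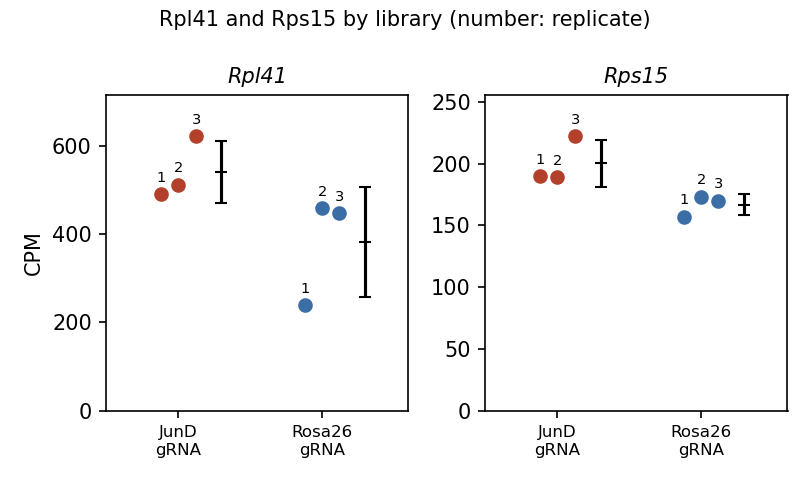
CPM (y axes from 0) of Rpl41 and Rps15 in each library, numbered by replicate, with the mean and SD of 3 libraries beside each group. In both genes every JunD gRNA library lies above every Rosa26 gRNA library, and for Rpl41 Rosa26 gRNA replicate 1 is at 238 CPM.

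Adding pseudogene copies to every member changed which families passed. On 5 libraries 7 families were higher and 0 lower, against a background of 1.54% of 18107 entries higher and 1.44% lower, and on 6 libraries 0 were called, with a background of 0%. The 7 were the families of Rpl19, Rpl38, Rpl41, Rps15, Rps2, Rps29 and Rpsa. The Rps29 family had 269, 290 and 320 CPM in the JunD gRNA libraries and 98.8, 259 and 252 CPM in the Rosa26 gRNA libraries, with a log2 fold change of 0.20 ± 0.05 (5 libraries, edgeR adjusted p = 0.0301). The Rpsa family, whose protein also acts as a laminin receptor, had 475, 493 and 518 CPM with the JunD gRNA and 291, 456 and 444 CPM with the Rosa26 gRNA, with a log2 fold change of 0.14 ± 0.04 (edgeR adjusted p = 0.0470). In both families Rosa26 gRNA replicate 1 was far below every other library, and it was not in this fit.

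Copies were also tested as genes of their own. Of 190 pseudogene copies tested on 5 libraries, 7 rose and 0 fell, with a median log2 fold change of 0.09, and 129 were above 0, against 1.45% of all genes higher, 1.4% lower and 49.2% above 0. On 6 libraries 0 of 177 were called and 135 were above 0, against 0% and 48.9% of all genes. The 7 were Rps2-ps10, Gm5786 (a copy of Rps2), Rpsa-ps10, Rpl19-ps11, Rpl38-ps2, Gm14303 (Rps29) and Gm6204 (Rps14). Among protein-coding copies, Gm10073, a copy of Rplp1, rose (log2 fold change 0.21 ± 0.05, edgeR adjusted p = 0.0402). Rpl10-ps3, identical to Rpl10 over its 642 coding bases, fell: it had 38.8, 39.0 and 34.2 CPM in the JunD gRNA libraries and 32.7, 46.5 and 44.6 CPM in the Rosa26 gRNA libraries, with a log2 fold change of -0.28 ± 0.06 on 5 libraries (edgeR adjusted p = 0.0169). Rosa26 gRNA replicate 1, left out of that fit, was below all JunD gRNA libraries. Rpl10 itself had 20.7, 23.4 and 24.9 CPM with the JunD gRNA and 21.3, 22.2 and 25.4 CPM with the Rosa26 gRNA, overlapping throughout.

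The stalk proteins form a functional set that meets the elongation factors. Rplp1 had 226, 229 and 239 CPM in the JunD gRNA libraries and 132, 214 and 207 CPM in the Rosa26 gRNA libraries, without overlap, and a log2 fold change of 0.14 ± 0.04 on 5 libraries that missed the threshold (edgeR adjusted p = 0.0683). Rplp0 had 374, 383 and 400 CPM with the JunD gRNA and 274, 366 and 347 CPM with the Rosa26 gRNA, with a log2 fold change of 0.12 ± 0.04 (edgeR adjusted p = 0.114). Rplp2 had 15.3, 14.6 and 16.3 CPM with the JunD gRNA and 11.5, 13.7 and 14.2 CPM with the Rosa26 gRNA (0.15 ± 0.09, edgeR adjusted p = 0.425). In all 3 every JunD gRNA library lay above every Rosa26 gRNA library, and none was called.

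The members with few or no other matches are those whose rows depend least on how reads were assigned. Rps3, a small-subunit protein at the mRNA entry with a role in DNA repair, had 511, 502 and 533 CPM with the JunD gRNA and 419, 486 and 468 CPM with the Rosa26 gRNA. Its log2 fold change on 5 libraries was 0.12 ± 0.04 (edgeR adjusted p = 0.102). Rpl8 had 556, 569 and 641 CPM with the JunD gRNA and 472, 554 and 527 CPM with the Rosa26 gRNA (0.13 ± 0.05, edgeR adjusted p = 0.147). In both genes the groups did not overlap, with JunD gRNA replicate 1 of Rpl8 only just above Rosa26 gRNA replicate 2. Over the 16 tested members with at least 50% unique windows, 13 were above 0 on 5 libraries with a median log2 fold change of 0.10, and 0 were called. Over the 60 with less, 48 were above 0 with a median of 0.08, and 3 were called. The share of unique windows depends on the length of the main transcript, which was long for Rps15a and Rps20.

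By abundance, the members are set against all genes on 5 libraries, of which 1.45% were called higher and 49.2% were above 0. The 19 members at 100 CPM or more had a median log2 fold change of 0.12 on 5 libraries, with 18 above 0 and 2 called. The 31 members at 10 to 100 CPM had 27 above 0 and 1 called. The 26 tested members under 10 CPM had a median of 0.04, with 16 above 0 and 0 called. Lower counts also give wider errors, as for Rpl23a, which had the largest log2 fold change on 5 libraries, 0.43 ± 0.39 (edgeR adjusted p = 0.663), at 0.742, 0.828 and 1.13 CPM with the JunD gRNA and 0.645, 0.840 and 0.502 CPM with the Rosa26 gRNA.

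Among the members with the highest fold changes that were not called, Rpl35a, a Diamond-Blackfan anaemia gene of the large subunit, had 11.7, 12.5 and 14.6 CPM with the JunD gRNA and 12.9, 10.035 and 10.3 CPM with the Rosa26 gRNA. Its log2 fold change was 0.36 ± 0.10 on 5 libraries (edgeR adjusted p = 0.0628). It is one of the members in which Rosa26 gRNA replicate 1 lay within the JunD gRNA range. Rpl5 had 0.30 ± 0.16 (edgeR adjusted p = 0.350). On 6 libraries the highest after Rpl41 were Rpl23a at 0.46, Rpl31 at 0.44, Rps10 at 0.40 and Rpl18 at 0.39.

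The lowest fold changes belonged to members with few counts, and none was called. On 5 libraries Rps16 had a log2 fold change of -0.24 ± 0.16, Rpl36a -0.21 ± 0.27, Rps27a -0.16 ± 0.13, Rpl37 -0.11 ± 0.17 and Rpl37a -0.11 ± 0.12, with edgeR adjusted p from 0.506 to 0.822. Rps16 had 3.95, 3.58 and 3.77 CPM in the JunD gRNA libraries and 3.29, 3.998 and 4.91 CPM in the Rosa26 gRNA libraries. With the pseudogene copies added, the sign of Rps16, Rpl37 and Rpl37a turned, to 0.13, 0.02 and 0.05. Rps27a, whose product is a fusion of ubiquitin with a ribosomal protein, had 7.61, 6.35 and 9.69 CPM with the JunD gRNA and 8.39, 9.10 and 8.65 CPM with the Rosa26 gRNA. On 6 libraries the lowest were Rpl36a at -0.15, Rps27a at -0.12, Rps16 at -0.10, Rpl15 at -0.05 and Rpl37 at -0.03.

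**Figure D5:**
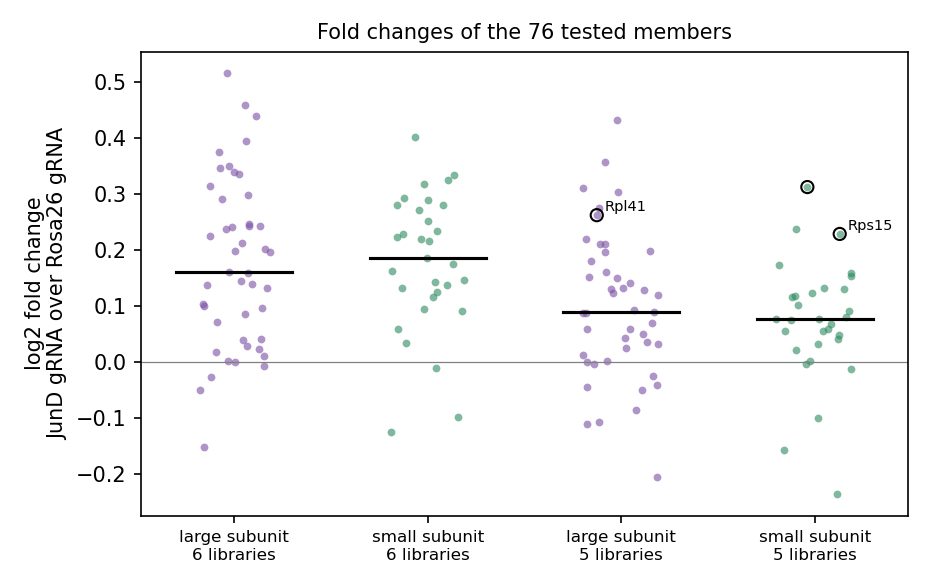
Log2 fold change, JunD gRNA over Rosa26 gRNA (y axis), of the 76 tested members by subunit and by the number of libraries in the fit; black lines are medians and rings mark members past an adjusted p of 0.05. The medians are 0.16 and 0.19 on 6 libraries and 0.09 and 0.08 on 5, and the labelled genes are Rpl41 and Rps15.

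The promoters of the members were examined for sequence motifs, since JunD binds DNA as part of AP-1 dimers. RefSeq windows of 300 bases on GRCm38.p6, from 250 before to 50 after the start, were found for 60 of the 80 members, 72 windows in all. Both called members with a window are printed from 135 bases before the start to 15 after it, with the ETS-type motif in capitals where it occurs. Rpl41 is at chr10:128549154-128549303 (minus strand) and Rps15 at chr10:80292296-80292445 (plus strand). The RefSeq starts differ from the GENCODE gene spans given above. All of the printed Rpl41 stretch lies inside its GENCODE span, and all of the printed Rps15 stretch lies before its GENCODE start.
Rpl41: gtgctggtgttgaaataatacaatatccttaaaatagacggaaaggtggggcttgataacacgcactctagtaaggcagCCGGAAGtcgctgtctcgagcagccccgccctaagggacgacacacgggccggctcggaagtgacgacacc
Rps15: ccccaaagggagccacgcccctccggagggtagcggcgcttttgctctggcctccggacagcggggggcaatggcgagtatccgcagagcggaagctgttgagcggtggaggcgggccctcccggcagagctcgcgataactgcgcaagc

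The AP-1 motif TGACTCA, sought on both strands, was in 2 of the 72 member windows (2.78%), those of Rpl22 and Rpl9, against 5.2% of all 32851 windows. The related CRE motif TGACGTCA was in 5 (6.94%), those of Rpl13, Rpl18, Rpl26, Rpl27a and Rps9, against 1.79%. Rpl18, of these 5, had 56.2, 58.1 and 69.1 CPM with the JunD gRNA and 34.7, 55.0 and 51.1 CPM with the Rosa26 gRNA, with a log2 fold change on 5 libraries of 0.21 ± 0.07 (edgeR adjusted p = 0.107). None of these 7 genes was called. The ETS-type motif CCGGAAG was in 26 windows (36.1%), against 8.86% of all windows, the YY1-type motif AAGATGGC in 7 (9.72%), against 2.75%, and the E-box CACGTG in 8 (11.1%), against 7.15%. A match is a description of the letters only.

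A run of at least 5 pyrimidines that spans the annotated start was in 20 windows (27.8%), against 10.1% of all windows. The run was counted on both sides of the start, so it is not the TOP motif, which lies in the mRNA's first bases. Most of the Rpl34 run, for example, lies before the start. Windows with long runs are shown from 20 bases before the start to 10 after it, with the run in capitals. They are Rpl7a at chr2:26910787-26910816 (plus strand), Rpl34 at chr3:130730328-130730357 (minus strand), Rpl35 at chr2:39005122-39005151 (minus strand) and Rpl14 at chr9:120571497-120571526 (plus strand).
Rpl7a: ccacaaTTCCCTCTTCTTTCTTTCTCCagc
Rpl34: ccgCCCCTTCCTTTTCCTCTTCCggggacg
Rpl35: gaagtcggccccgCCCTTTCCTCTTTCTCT
Rpl14: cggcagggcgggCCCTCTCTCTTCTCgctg

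The genes around the ribosome did not pass the test. Of 42 translation factors, 53 ribosome biogenesis factors, 15 genes of RNA polymerase I and rRNA gene transcription, 26 regulators around mTORC1, TOP mRNAs and Myc, 10 snoRNA host genes and 15 assembly and rescue factors, 0 were called on 6 or on 5 libraries, where the background was 0% and 2.86%. At an unadjusted p under 0.05 on 5 libraries, the counts higher and lower were 6 and 2 for translation factors, 6 and 8 for biogenesis, 1 and 1 for RNA polymerase I, 3 and 2 for the mTORC1 list, 0 and 2 for snoRNA hosts and 1 and 0 for assembly. Their median log2 fold changes on 5 libraries lay between -0.09 for the snoRNA hosts and 0.01 for translation factors and for assembly factors, below the 0.08 of the members. Of 8 ribosomal genes that the name rule misses, 0 were called, with medians of 0.17 on 6 libraries and 0.03 on 5.

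The genes shown next had the smallest edgeR p of their list on 5 libraries, so they do not stand for the list as a whole. Eif5a, a translation elongation factor, had 419, 430 and 433 CPM with the JunD gRNA and 349, 397 and 395 CPM with the Rosa26 gRNA (log2 fold change 0.12 ± 0.04 on 5 libraries, edgeR adjusted p = 0.0866). Rrp1, a ribosome biogenesis factor, had 261, 272 and 269 CPM with the JunD gRNA and 247, 247 and 243 CPM with the Rosa26 gRNA (0.13 ± 0.04, edgeR adjusted p = 0.0735). Snhg1, whose introns carry snoRNAs and which is itself a TOP RNA, had 43.2, 47.7 and 44.9 CPM with the JunD gRNA and 39.8, 50.5 and 53.4 CPM with the Rosa26 gRNA (-0.19 ± 0.06, edgeR adjusted p = 0.0753).

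The mitochondrial ribosomal proteins, which nuclear genes encode for a separate ribosome, took 0.219 ± 0.0085% of counts with the JunD gRNA and 0.196 ± 0.016% with the Rosa26 gRNA (SD, n = 3 each), or 0.205% over Rosa26 gRNA replicates 2 and 3. On 5 libraries 1 of 77 was called higher and 0 lower, with 64 above 0 and a median log2 fold change of 0.09, against a background of 1.45% higher, 1.4% lower and 49.2% above 0, and beside 3 of 76 called, 61 above 0 and a median of 0.08 for the cytosolic members. On 6 libraries 69 of 77 were above 0 with a median of 0.15, and 0 were called, against 48.9% and 0% of all genes. A difference between the cytosolic and mitochondrial lists was not tested.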

How the data were processed

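Total RNA of 6 Min6 libraries was sequenced, and the authors deposited raw counts per gene, 1 table per library. The mm10 build, TopHat2 and featureCounts are named per the submitters' processing notes. Their versions, the annotation, the strand setting and the handling of reads with several matches: not given in the sources used here. Identifiers were matched to GENCODE M21 without the version for 53274 of 53379 (50604 with it). Depth was 41071566 to 50024931 counts. Between any 2 libraries the chi-square over genes was at least 3.22 times its degrees of freedom, beyond sampling noise.

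JunD gRNA was compared with Rosa26 gRNA in edgeR 4.0.16 (R 4.3.3): TMM, filterByExpr, quasi-likelihood test, group as the sole term, Benjamini-Hochberg over all genes tested, once with 6 libraries and once without Rosa26 gRNA replicate 1. SEs are the fold change over the square root of F, and approximate. Windows of 50 and 100 bases of each member's main mRNA were matched to all GENCODE transcripts with bwa 0.7.19-r1273 and up to 2 mismatches. CPM are counts over the library total, and per kb values use the union of annotated exons, which includes retained introns. The procedure was tested on simulated data with 50 genes changed at each fold. On 6 libraries it recovered 0% of 1.25-fold and 22% of 1.5-fold changes. On 5 libraries it recovered 44% and 62%, and 6 of its 139 calls were false. A count of 0 called members on 6 libraries therefore cannot exclude changes of this size. Members, lists, named genes and the 5-library comparison were chosen with earlier results of these data known. Named genes are, by rule, Jund, the 5 highest and lowest levels and fold changes, called members, paralogues, stalk and other fixed members, and up to 3 genes a list by p. Members and copies named beside shared windows, family sums or motifs lie outside that rule and were chosen after their values were seen. Results of some single genes are not reported here. Alternatives were other normalizations (among them limma 3.58.1 voom and DESeq2 1.42.0), count filters, a replicate block, a GC and length correction, and each library left out.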

Additional observations from a re-analysis of the deposited data

How the results depend on the processing

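On 6 libraries 0 members were called under every alternative run except without Rosa26 gRNA replicate 1, and leaving out 1 library at a time gave 0 to 3. On 5 libraries the count of 3 higher, beside 266 of all 18296 genes, became 12 with no count filter (498 of 28996 genes). It became 12 with the replicate block (475 of 18296) and 6 with the GC and length correction (370 of 18296). With pseudogene copies added, chosen after seeing the data, it became 7 (278 of 18107 entries). In the block JunD gRNA replicate 1 has no Rosa26 gRNA partner, so the group term there rests on replicates 2 and 3. The cause of these changes was not tested. Leaving out 1 more JunD gRNA library gave 2 to 12: 12 without replicate 1, and 2 without replicate 2 or without replicate 3. All genes called higher were then 378 of 18027, 281 of 18041 and 316 of 17855. Leaving out Rosa26 gRNA replicate 2 or 3 leaves that group with 1 library, assumed to vary like the other group, and calls of those fits are not counted. Replicate numbers did not pair the libraries (correlations of same-numbered deviations 0.06, -0.04 and 0.07), and the block gave 0 members on 6 libraries. The median log2 fold changes of large and small subunit members stayed above 0 under every alternative run, while the median of all genes ran from -0.022 to 0.0049 on 6 libraries and from -0.0051 to 0.019 on 5, on both sides of 0. The difference in the large to small ratio, 0.02, became -0.0059 with -ps named pseudogenes added. The SD of log2 CPM per kb, 2.38, became 2.34 with the longest transcript, 2.29 with the main mRNA and 2.49 per unique base.

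Signs of uncalled members turned as follows. On 6 libraries Rpl37a was 0.0028 with no count filter and Rpl15 was 0.051 with the GC and length correction. With pseudogene copies added, on 6 libraries Rpl36a was 0.025, Rps27a 0.15, Rps16 0.19, Rpl37 0.17, Rpl37a 0.18 and Rpl5 -0.027, and on 5 libraries Rpl31 was -0.0048, Rps16 0.13, Rpl37 0.021, Rpl37a 0.047 and Rpl5 -0.048. Rpl36a was 0.017 on 5 libraries with the replicate block. Leaving out 1 library on 6 gave -0.42 to 0.068 for Rpl36a, -0.31 to 0.014 for Rps27a, -0.24 to 0.069 for Rps16, -0.11 to 0.050 for Rpl15, -0.11 to 0.042 for Rpl37 and -0.11 to 0.068 for Rpl37a, and on 5 gave -0.47 to 0.12 for Rpl36a.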
